A study of Mus musculus with 4 samples.

Results

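The 10 genes described here take part in calcium cycling around the sarcoplasmic reticulum, the calcium store of heart muscle, and were followed in 4 infarcted mouse hearts. They were taken by symbol from the platform annotation (Atp2a2, Pln, Sln, Casq1, Casq2, Ryr2, Hrc, Trdn, Jph2 and Slc8a1). All 10 were measured, each by 1 probe, among 19505 named genes on the array. A probe stands here for the group of oligonucleotides that the array combines into 1 value. The control hearts C1 and C2 (replicates 1 and 2 of Ctrl-MI) carried Tcf21iCre/Tomato, a Cre recombinase under the fibroblast gene Tcf21 with a Tomato reporter. The transgenic hearts T1 and T2 (replicates 1 and 2 of TTg-MI) carried Tcf21iCre/Tomato/MGTH2A, which adds a construct known in the field to carry Mef2c, Gata4, Tbx5 and Hand2, transcription factors of the heart. All mice were male, had the left coronary artery tied at 8 weeks of age and gave their hearts 3 months later. Mice with an ejection fraction above 45% at 2 days after the operation had been removed by the submitters. The labels give the source as whole heart, and the Cre acts in cells that express Tcf21, so the muscle cells that hold most calcium cycling transcripts are measured together with all other cells. In such tissue, fewer cells of a type and less RNA per cell cannot be told apart.

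In a heartbeat, calcium that enters a muscle cell opens the ryanodine receptor of the sarcoplasmic reticulum, which releases stored calcium onto the myofilaments. The muscle relaxes as the pump SERCA2a, made from Atp2a2, returns calcium to the store and as the sodium-calcium exchanger Slc8a1 carries it out of the cell. Phospholamban (Pln) and sarcolipin (Sln) are small membrane proteins that restrain the pump, and sarcolipin is a gene of the atria more than of the ventricles. Calsequestrin holds calcium inside the store, triadin ties it to the ryanodine receptor, and junctophilin 2 holds the store close to the surface membrane. Lower levels of the pump are a known trait of failing hearts.

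The exchanger gene Slc8a1, the ryanodine receptor gene Ryr2 and the luminal calcium-binding protein gene Hrc had higher values in TTg-MI hearts, by 1.82-fold, 1.85-fold and 1.62-fold. The skeletal calsequestrin gene Casq1 had lower values, by 1.47-fold. No member passed limma with Benjamini-Hochberg adjustment over all 22206 probes, a threshold that 1 probe passed (0.0045%). At an unadjusted limma p under 0.05 there were 4 of the 10 members, against 8.25% of all probes. Of these 4, 3 were higher in TTg-MI, against 3.18% of all probes, and 1 was lower, against 5.07%. Leaving out 1 array leaves a group with 1 array. The members under that threshold then changed with the array left out, as did the count over all probes. For 4 members (Ryr2, Slc8a1, Hrc and Trdn) T1 and T2 were each higher than C1 and C2, as were 19.4% of all probes. For 1 member, Casq1, they were each lower, as were 18.7% of all probes. The median log2 difference of the 10, always TTg-MI minus Ctrl-MI, was 0.39 (log2 units), beside 0.01 for all probes. That median was 0.10 without C1 and 0.45 without C2.

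**Figure D1:**
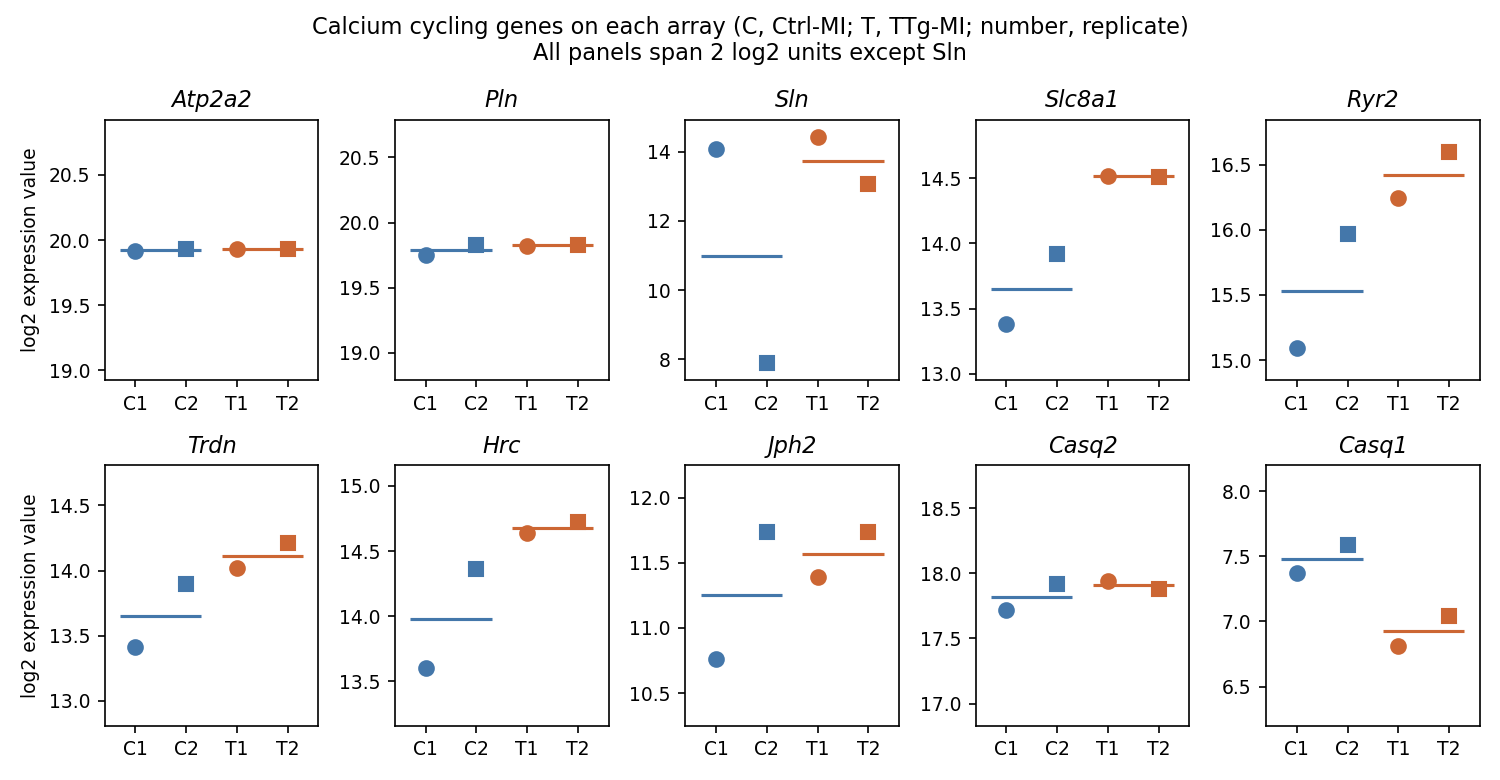
Log2 expression value of each of the 10 genes on each of the 4 arrays (blue, Ctrl-MI; orange, TTg-MI; C1 and C2 left, T1 and T2 right; bars, group means); every panel but that of Sln spans 2 log2 units. Slc8a1, Ryr2, Trdn and Hrc lie higher on both TTg-MI arrays, Casq1 lies lower, and Sln is low on C2 alone.

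Array medians lay between 6.55 and 6.62 and lower quartiles between 5.41 and 5.48 on the log2 scale. Between 13 and 17 probes per array held that array's highest value of about 19.9 to within 0.001. Of the 8 members not within 1 log2 unit of that highest value, 6 were lowest on C1, beside 28.6% of all named genes and 4 of 7 cardiomyocyte markers other than Ryr2 that also lay that far below it. With 2 arrays a group an exact two-sided permutation test of 1 gene cannot give a p below 0.333, so each limma test leans on variance shared across probes.

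Slc8a1, which exchanges sodium for calcium at the surface membrane and is the main route of calcium out of the cardiac muscle cell, stood at 13.38 and 13.92 on the Ctrl-MI arrays and at 14.52 and 14.51 on the TTg-MI arrays (log2 values). Both TTg-MI hearts lay above both controls, by at least 0.60, which is more than the 0.53 between the controls. The log2 difference was 0.87 (SE 0.22, 95% interval 0.32 to 1.41), with a limma adjusted p of 0.546 (Benjamini-Hochberg over all probes). Among the members it alone kept an unadjusted limma p under 0.05 in each of the 4 fits that left out 1 array. Its difference in these fits ran from 0.60 without C1 to 1.13 without C2.

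Genes of the release complex of the store were read next, in no order of size. Ryr2, the calcium release channel, stood at 15.09 and 15.97 in Ctrl-MI and at 16.24 and 16.60 in TTg-MI. The groups did not overlap, but the gap between them (0.27) was smaller than the 0.88 between the Ctrl-MI arrays. The log2 difference of Ryr2 was 0.89 (SE 0.32, 95% interval 0.09 to 1.69, limma adjusted p = 0.588, Benjamini-Hochberg). It was 0.45 without C1 and 1.33 without C2, and its unadjusted p was above 0.05 without C1 and without T2.

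Hrc encodes the histidine-rich calcium-binding protein of the store's lumen, which binds both the pump and triadin. It stood at 13.60 and 14.36 in Ctrl-MI and at 14.64 and 14.72 in TTg-MI. As with Ryr2, the arrays of the groups did not overlap, and the lowest was C1. The Hrc difference was 0.70 (SE 0.27, 95% interval 0.02 to 1.38, limma adjusted p = 0.599, Benjamini-Hochberg). It was 0.32 without C1 and 1.08 without C2. Of the 4 fits without 1 array, the 1 without C2 kept its unadjusted p under 0.05. The unadjusted limma p of Hrc was also above it with median centring (0.0510) and with an intensity trend and robust prior (0.0585), as it was in the unmoderated model (0.208).

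Trdn, the triadin gene, stood at 13.41 and 13.90 in Ctrl-MI and at 14.02 and 14.21 in TTg-MI. These arrays lay in the same order as those of Ryr2 and Hrc, with a gap of 0.12 between the groups. The Trdn difference was 0.46 (SE 0.22, 95% interval -0.08 to 0.999, limma adjusted p = 0.646, Benjamini-Hochberg), with 0.21 without C1 and 0.71 without C2.

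Jph2, the junctophilin that bridges the store and the surface membrane, stood at 10.76 and 11.74 in Ctrl-MI and at 11.39 and 11.74 in TTg-MI. The groups overlapped, as C2 lay level with T2. The Jph2 difference was 0.32 (SE 0.35, 95% interval -0.55 to 1.18, limma adjusted p = 0.874, Benjamini-Hochberg). Its sign rested on C1, without which it was -0.18. It was 0.81 without C2, 0.49 without T1 and 0.14 without T2.

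The level of other heart muscle transcripts was read on the same arrays. Of the 11 cardiomyocyte markers other than Ryr2, 0 had an unadjusted limma p under 0.05 and 8 had a higher TTg-MI mean. Their median log2 difference was 0.07. The 7 of them that lay at least 1 log2 unit under the arrays' highest value averaged 16.01 and 16.43 on the Ctrl-MI arrays and 16.41 and 16.24 on the TTg-MI arrays, a difference of 0.10. Measured against that average on each array, Slc8a1 differed by 0.77, Ryr2 by 0.79, Hrc by 0.60 and Trdn by 0.36, and both TTg-MI arrays still lay above both Ctrl-MI arrays for these 4. Fibroblast markers ran the other way, with 11 of 11 lower on both TTg-MI arrays than on both Ctrl-MI arrays and a median difference of -1.37. Their mean level was 13.44 and 12.56 in Ctrl-MI and 12.04 and 10.99 in TTg-MI. Macrophage markers had a lower TTg-MI mean for 9 of 9, with mean levels of 9.98 and 8.85 against 8.49 and 7.91. The part of these 2 cell types in the results above was not tested.

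**Figure D2:**
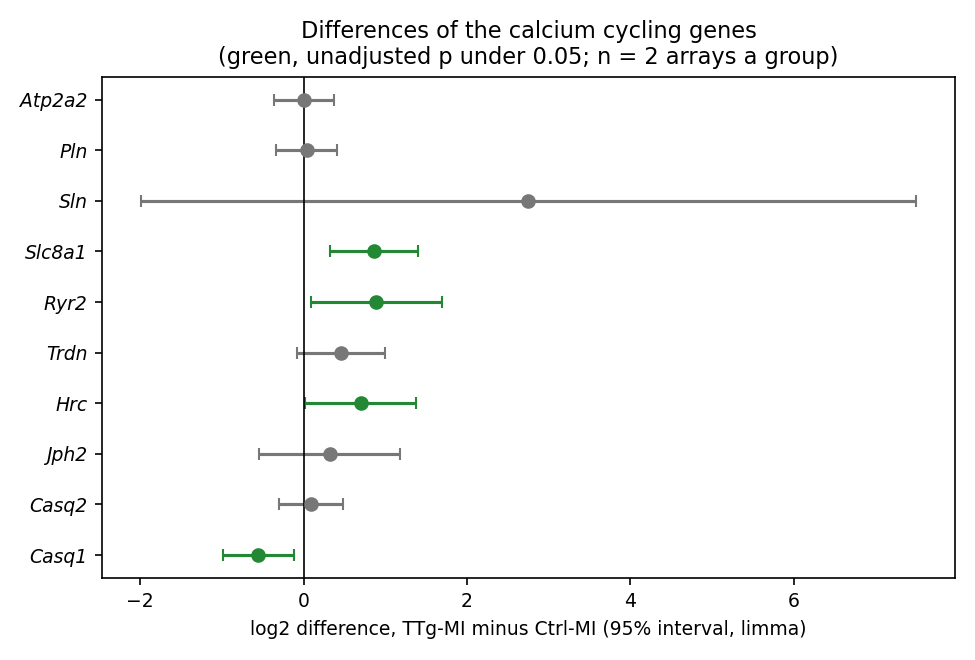
Log2 difference of each of the 10 genes, TTg-MI mean minus Ctrl-MI mean, with its 95% interval from limma (n = 2 arrays a group; green, unadjusted p under 0.05). The intervals of Slc8a1, Ryr2 and Hrc lie above 0 and that of Casq1 below it, and that of Sln runs from -1.99 to 7.49.

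The promoters of 7 of the 10 members matched RefSeq promoter sequences of build GRCm38.p6, 8 sequences in all as Jph2 had 2 that overlap. No sequence for Atp2a2, Sln or Trdn was found among the promoters used here. The 250 bases before each start are shown for the 4 members with an unadjusted p under 0.05, and for Casq2 as a member with little difference. Capitals mark letters that match, on either strand, motifs of the transgene's factor families or 2 general elements. The letters were MEF2, AGATAA for the family of Gata4, TCACACC for T-box factors, CATCTG as an E-box for Hand2, the muscle element CArG, and TATAAA as the core promoter box. None of the printed matches overlaps another.
Slc8a1, chr17:81738388-81738637, minus strand: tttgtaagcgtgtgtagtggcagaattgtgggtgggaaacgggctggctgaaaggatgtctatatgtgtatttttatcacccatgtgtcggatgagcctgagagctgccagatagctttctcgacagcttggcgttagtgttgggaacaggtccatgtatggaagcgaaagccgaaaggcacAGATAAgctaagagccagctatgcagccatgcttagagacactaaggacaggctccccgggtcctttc
Ryr2, chr13:12106946-12107195, minus strand: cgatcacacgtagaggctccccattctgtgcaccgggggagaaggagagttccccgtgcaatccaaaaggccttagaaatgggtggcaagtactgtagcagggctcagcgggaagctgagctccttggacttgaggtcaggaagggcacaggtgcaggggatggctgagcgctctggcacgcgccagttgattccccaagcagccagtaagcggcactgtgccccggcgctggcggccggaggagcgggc
Hrc, chr7:45335019-45335268, plus strand: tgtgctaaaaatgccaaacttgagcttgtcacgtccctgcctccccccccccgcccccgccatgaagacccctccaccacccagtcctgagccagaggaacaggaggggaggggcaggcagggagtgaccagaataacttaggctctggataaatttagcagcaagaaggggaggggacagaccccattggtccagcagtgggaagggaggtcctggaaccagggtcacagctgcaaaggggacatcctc
Casq1, chr1:172219896-172220145, minus strand: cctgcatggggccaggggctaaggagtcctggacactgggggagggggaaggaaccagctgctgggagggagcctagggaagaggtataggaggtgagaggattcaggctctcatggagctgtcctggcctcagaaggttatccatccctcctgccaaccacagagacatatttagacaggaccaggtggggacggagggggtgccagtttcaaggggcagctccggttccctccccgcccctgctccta
Casq2, chr3:102086165-102086414, plus strand: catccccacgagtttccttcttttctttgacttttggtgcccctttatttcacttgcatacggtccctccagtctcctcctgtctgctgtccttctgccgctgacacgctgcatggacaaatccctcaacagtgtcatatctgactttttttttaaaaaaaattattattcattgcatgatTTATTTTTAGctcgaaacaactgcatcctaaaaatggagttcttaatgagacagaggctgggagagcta
Slc8a1 held 1 GATA match, from 68 to 63 bases before the start, and Casq2 held 1 MEF2 match, from 69 to 60 bases before it. Ryr2, Hrc and Casq1 held none of the letters searched. Over all 32851 promoters of the table, cut to the same length, the GATA letters were in 9.99%, MEF2 in 2.92%, the T-box letters in 3.33%, the E-box letters in 14.4%, CArG in 1.47% and the TATA letters in 12.4%. Among the 8 member promoters GATA letters were in 2 (Pln and Slc8a1), MEF2 in 1, TATA letters in 1 (Pln), and T-box, E-box and CArG letters in 0. A match is a description of letters in this window and no sign that a factor binds there.

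The pump gene and its main inhibitor could not be compared on this scale. Atp2a2 was at 19.92, 19.93, 19.93 and 19.93 on C1, C2, T1 and T2. These are the highest values of the arrays, which the myoglobin gene Mb also held on all 4. Pln lay within 0.17 of them, at 19.75 and 19.83 in Ctrl-MI and 19.82 and 19.83 in TTg-MI. At the top of the scale a higher level would not show, so no fold is given for either gene. The fitted difference was 0.00 (SE 0.15) for Atp2a2 and 0.04 (SE 0.15) for Pln, with limma adjusted p of 0.9997 and 0.977 (Benjamini-Hochberg).

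Casq2, the calsequestrin of heart muscle, lay at 17.72 and 17.92 in Ctrl-MI and at 17.94 and 17.88 in TTg-MI, about 2 log2 units under the top of the scale. The groups overlapped, and the lowest array was again C1. The Casq2 difference was 0.09 (SE 0.16, 95% interval -0.31 to 0.49, limma adjusted p = 0.935, Benjamini-Hochberg), and -0.01 without C1.

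Casq1, the calsequestrin of fast skeletal muscle, was the member that was lower in TTg-MI. It stood at 7.37 and 7.59 in Ctrl-MI and at 6.81 and 7.04 in TTg-MI, above each array's median. Both TTg-MI arrays lay under both Ctrl-MI arrays by at least 0.33, more than the 0.22 and 0.23 within the groups. The Casq1 difference was -0.55 (SE 0.17, 95% interval -0.99 to -0.12, limma adjusted p = 0.567, Benjamini-Hochberg) and ran from -0.67 to -0.44 as single arrays were left out. Its unadjusted p was above 0.05 without C2 and without T1. The log2 ratio of Casq1 to Casq2 on each array was -10.35 and -10.33 in Ctrl-MI and -11.12 and -10.84 in TTg-MI. That ratio cancels each probe's own response only in the difference between groups, which was -0.64 (exact two-sided permutation p = 0.333, the smallest possible).

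Of 15 skeletal muscle markers, 9 lay under the array median on all 4 arrays, among them the fast myosins Myh1, Myh2 and Myh4 and the troponins Tnnt3 and Tnni2. Their log2 differences ran from -3.72 for Acta1, the skeletal actin that a stressed heart also makes, to 0.58 for Cacna1s, the skeletal calcium channel. Mybpc2, a myosin-binding protein of fast muscle, differed by -0.53 (SE 0.19), and Acta1 by -3.72 (SE 0.87), from 19.06 and 19.50 in Ctrl-MI to 16.98 and 14.15 in TTg-MI. As its Ctrl-MI values lay within 1 log2 unit of the highest, the size of the Acta1 difference may be a lower limit. With Benjamini-Hochberg adjustment in limma 0 of the 15 passed, and at an unadjusted p under 0.05 there were 1 higher and 2 lower. The median log2 difference of the 15 was 0.05, with a higher TTg-MI mean for 8 and a lower one for 7. The mean level of the list, which includes Acta1, was 7.47 and 7.48 in Ctrl-MI and 7.37 and 7.23 in TTg-MI. Its part in the Casq1 values was not tested.

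Sln, the sarcolipin gene, had the widest spread of the members, 6.51 log2 units over the 4 arrays, beside 1.51 for Ryr2, the next. It stood at 14.07 on C1 but at 7.90 on C2, and at 14.42 and 13.06 on the TTg-MI arrays. The value of C1 thus lay between those of the TTg-MI hearts, and 1 control heart was low. The Sln difference was 2.75 (SE 1.90, 95% interval -1.99 to 7.49, limma adjusted p = 0.778, Benjamini-Hochberg). Without C2 it was -0.34, and without C1 it was 5.84, so that its direction rested on 1 array. The log2 ratio of Sln to Pln was -5.68 and -11.93 in Ctrl-MI and -5.41 and -6.76 in TTg-MI, a difference of 2.71 (exact two-sided permutation p = 0.667). As Pln lay at the top of the scale, that ratio carries little beyond the values of Sln.

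Among 265 named genes that also spanned over 2 log2 units, the ones nearest to Sln were the atrial myosin light chain genes Myl7 and Myl4. Nearness was the root mean square distance between profiles over the 4 arrays, each gene centred on its own mean. The distance was 0.77 for Myl7 and 0.88 for Myl4 and then 1.93 for Hamp, the gene of the iron hormone hepcidin, 2.05 for Gpr158 and 2.05 for Dkk3. Myl4 stood at 15.99 and 7.70 in Ctrl-MI and at 16.34 and 14.61 in TTg-MI. Myl7 stood at 10.44 and 5.61 in Ctrl-MI and at 12.45 and 11.47 in TTg-MI. Both were lowest on C2, as Sln was.

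Not all atrial genes followed Sln. Bmp10, an atrial growth factor gene, stood at 5.31 and 5.40 in Ctrl-MI and at 12.38 and 11.82 in TTg-MI, low in both controls and thus unlike Sln on C1. It was the 1 probe that passed limma over all probes (difference 6.75, SE 0.22, adjusted p = 0.00489, Benjamini-Hochberg). Of the 14 atrial markers, 6 lay higher on both TTg-MI arrays and 2 lower, beside 19.4% and 18.7% of all probes. At an unadjusted limma p under 0.05 there were 6 higher and 1 lower, against 3.18% and 5.07% of all probes. The median difference of the list was 0.51. The mean level of the list was 11.37 and 10.12 in Ctrl-MI and 12.33 and 11.74 in TTg-MI. Single markers were lowest on C1 in 5 cases, on C2 in 4 and on T2 in 4. The low mean of C2 comes with the low values of Myl4, Myl7 and Dkk3 there (7.73 for Dkk3, beside 10.78 on C1). Dkk3 was nearly as low on T2 (7.94, beside 9.16 on T1). The differences of Stard10 and Tbx5 were 1.35 (SE 0.18) and 2.45 (SE 0.33), while Dkk3, a secreted protein of atrial muscle, differed by -0.70 (SE 0.99). Tbx5 is also a gene of the transgene's factors, and the counts, median and mean level of the atrial list include it. The ventricular light chain gene Myl2 stood at 18.86 to 19.08 on all 4 arrays. On 3 of them it lay within 1 log2 unit of the highest value, where a higher level may not show in full. Of 9 ventricular markers, 1 had an unadjusted limma p under 0.05, the slow myosin gene Myh7 (-1.46, SE 0.24), and their mean level lay between 11.25 and 11.51. Of 9 conduction system markers 2 had an unadjusted p under 0.05, both higher, led by the pacemaker channel gene Hcn4 (0.54, SE 0.15). Of 8 smooth muscle markers 1 was higher, Acta2 (1.26, SE 0.26), and 1 lower, Des (-0.52, SE 0.20), at that threshold. How much atrial tissue each sample held was not tested.

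**Figure D3:**
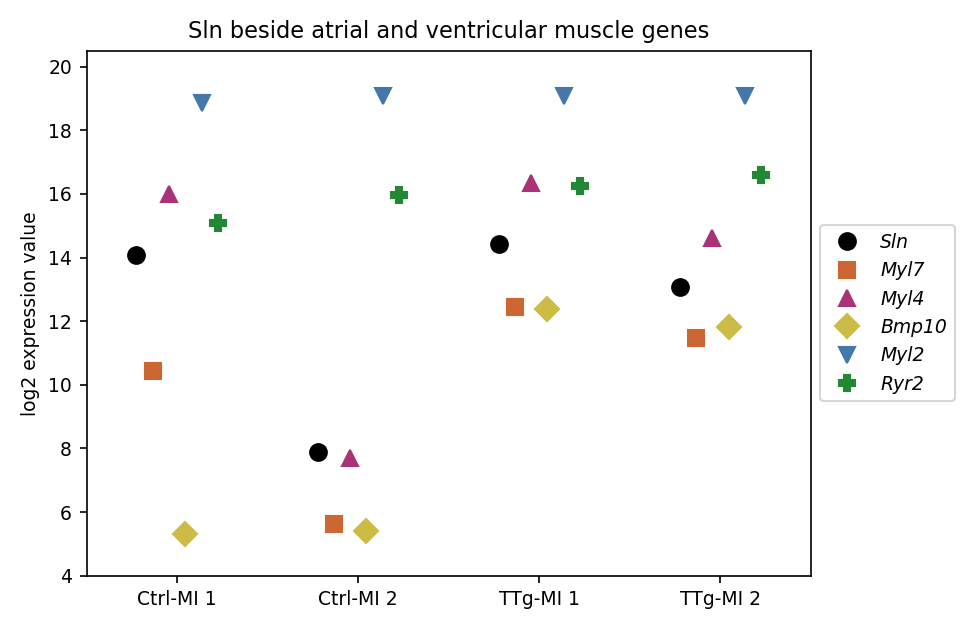
Log2 expression value of Sln beside the atrial genes Myl7, Myl4 and Bmp10, the ventricular gene Myl2 and the member Ryr2 on each of the 4 arrays (points of 1 array are set apart sideways for legibility). Sln, Myl7 and Myl4 are lowest on C2, Bmp10 is low on both Ctrl-MI arrays, and Myl2 stays between 18.86 and 19.08, near the top of the scale.

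The other genes of calcium cycling showed no common direction. Of 65 listed, 55 were measured in 4 groups, and 0 passed limma with Benjamini-Hochberg adjustment. At an unadjusted p under 0.05 there were 1 higher and 4 lower, against 3.18% and 5.07% of all probes. The TTg-MI mean was higher for 31 of the 55 and lower for 24, and 21 of the 55 (38.2%) were lowest on C1, beside 28.6% of all named genes. T1 and T2 were each higher than C1 and C2 for 10 of the 55 and each lower for 11, near the 19.4% and 18.7% of all probes. Their median log2 difference was 0.09. The number with an unadjusted p under 0.05 changed with the array left out, as it did over all probes.

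Among 16 partners of the release channel and other release channels, with a median of 0.12, Itpr2 was the 1 with an unadjusted p under 0.05. It encodes the inositol trisphosphate receptor of heart muscle, a second kind of release channel. Itpr2 stood at 9.60 and 10.06 in Ctrl-MI and at 10.95 and 10.35 in TTg-MI (difference 0.82, SE 0.27, limma adjusted p = 0.572, Benjamini-Hochberg). Both TTg-MI arrays lay above both controls.

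The junctional complex and the L-type calcium channel, which lets in the calcium that triggers release, had 10 measured genes, a median of 0.15 and 0 with an unadjusted p under 0.05. The smallest p was that of Bin1, which shapes the membrane folds that carry the channel. It stood at 7.53 and 7.50 in Ctrl-MI and at 7.32 and 6.98 in TTg-MI (difference -0.37, SE 0.18). In limma with Benjamini-Hochberg adjustment 0 of the 10 passed.

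Of 14 other pumps, exchangers and store entry genes, with a median of -0.01, Slc8b1 was the 1 with an unadjusted p under 0.05. Slc8b1 encodes the sodium-calcium exchanger of mitochondria and went the other way from Slc8a1. It stood at 8.50 and 8.23 in Ctrl-MI and at 7.84 and 7.80 in TTg-MI (difference -0.55, SE 0.17, limma adjusted p = 0.555, Benjamini-Hochberg). The arrays of the groups did not overlap.

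Regulators of the pump and other luminal proteins were 15 genes with a median of 0.18, of which 8 had a higher TTg-MI mean and 7 a lower one. Both TTg-MI arrays lay above both controls for 5 and under both for 4, beside 19.4% and 18.7% of all probes. The list held 3 genes with an unadjusted p under 0.05, all lower in TTg-MI. Calr, the calcium-binding chaperone calreticulin, stood at 16.58 and 16.51 in Ctrl-MI and at 16.21 and 15.97 in TTg-MI (difference -0.45, SE 0.16). Ppp1ca, a catalytic subunit of protein phosphatase 1, which reverses the phosphorylation of phospholamban, stood at 11.39 and 11.41 in Ctrl-MI and at 10.97 and 11.02 in TTg-MI (difference -0.40, SE 0.15). S100a6, a small calcium-binding protein, stood at 8.42 and 8.68 in Ctrl-MI and at 8.21 and 7.47 in TTg-MI (difference -0.71, SE 0.28). In all 3 both TTg-MI arrays lay under both controls, with limma adjusted p of 0.588, 0.588 and 0.600 (Benjamini-Hochberg).

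**Figure D4:**
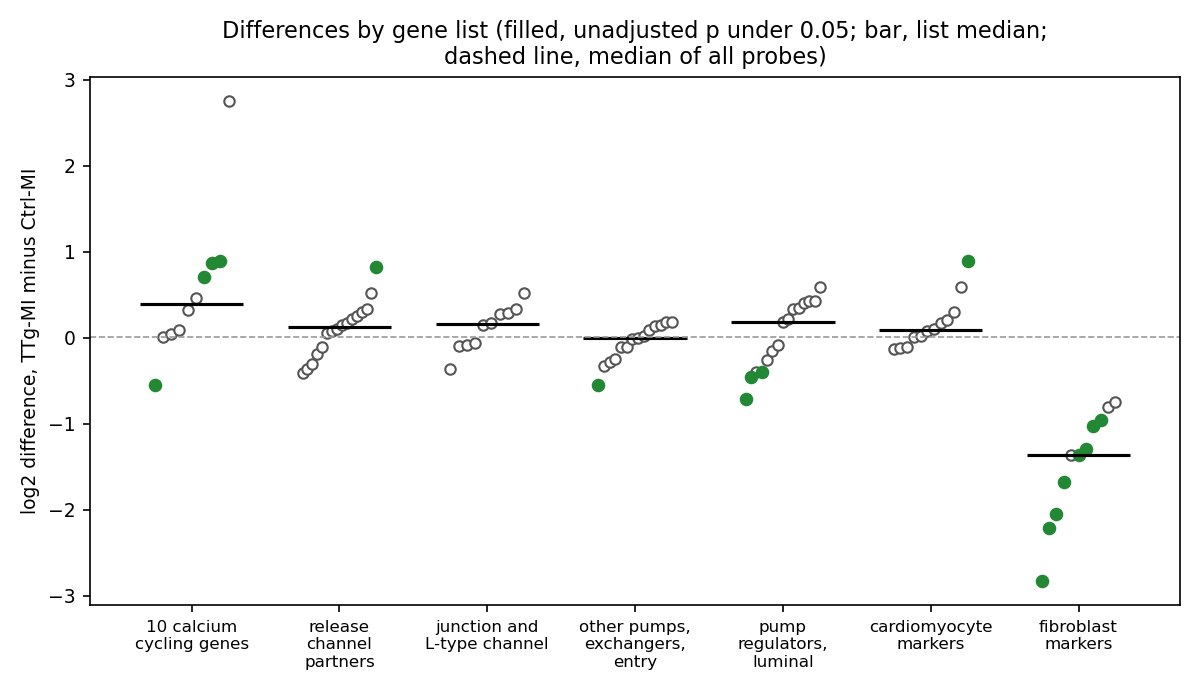
Log2 difference, TTg-MI mean minus Ctrl-MI mean, of each gene in the 10 calcium cycling genes, 4 further groups of calcium genes, and cardiomyocyte and fibroblast markers (points, genes; filled, unadjusted limma p under 0.05; bars, list medians; dashed line, median of all probes at 0.01). The 4 further groups have medians from -0.01 to 0.18, and the fibroblast markers lie below -0.74.

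The genes of the transgene's factors differed between the 2 TTg-MI hearts more than the release complex did. Mef2c stood at 16.01 on T1 and 13.97 on T2, beside 12.67 and 13.02 in Ctrl-MI. Tbx5 stood at 10.68 and 9.72 in TTg-MI, beside 7.62 and 7.88 in Ctrl-MI. Ryr2, Hrc, Trdn, Jph2 and Casq1 had their higher TTg-MI value on T2, where Mef2c and Tbx5 had their lower one. Sln (14.42 on T1 and 13.06 on T2) and Casq2 (17.94 and 17.88) had theirs on T1, and Slc8a1 differed by 0.005 between these hearts. A link between the levels of the factor genes and of the members was not tested. Gata4 and Hand2 differed by 0.16 (SE 0.27) and 0.78 (SE 0.42) between the groups, whose arrays overlapped for both genes.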

How the data were processed

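RNA of 4 mouse hearts was measured on Clariom S Mouse arrays. The submitters' processing notes name Affymetrix Expression Console 1.4 as the tool behind the deposited log2 values. The log base was inferred from the range of the values, and the sources used here do not give normalization method, annotation version or genome build. The values were used as deposited. The annotation named 1 gene for 19572 of the 22206 probes and none for 2634. Each gene was read from the probe with the highest mean.

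TTg-MI was tested against Ctrl-MI with limma 3.58.1 in R 4.3.3 (lmFit and eBayes, two-sided, Benjamini-Hochberg over all probes, threshold 0.05), with 2 residual degrees of freedom and 3.56 added by moderation. The fit was tested on simulated data. The members, gene lists and tests were chosen with earlier results of these data known. All members and factor genes were named, with the smallest-p genes of each calcium list, and, of marker lists, mainly the extremes and the smallest p. Marker lists covered atrial, ventricular, general cardiomyocyte, skeletal muscle, conduction, fibroblast, smooth muscle and macrophage genes. Other genes were chosen after their values were seen. Alternatives tried were median centring, quantile normalization, a dim-probe filter, an intensity trend with robust prior, an unmoderated model, a replicate block, the mean of a gene's probes and leaving out each array. Levels relative to cardiomyocyte markers were added after seeing the data. Array number limits the precision, as no read depth applies.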

Additional observations from a re-analysis of the deposited data

How the results depend on the processing

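No member passed limma with Benjamini-Hochberg adjustment in any alternative fit, and their smallest adjusted p was 0.0610, for Slc8a1 without C2. Slc8a1, Ryr2, Hrc and Trdn kept a positive and Casq1 a negative difference in every alternative run. Differences that changed sign without C1 were those of Atp2a2 (-0.002), Pln (-0.002), Casq2 (-0.009) and Jph2 (-0.178), whose highest values without 1 array were 0.007, 0.075, 0.191 and 0.811. Without C2 those of Sln (-0.335) and its ratio to Pln (-0.41) changed sign, and their highest, without C1, were 5.838 and 5.84. Relative to cardiomyocyte markers Atp2a2 (-0.096), Pln (-0.062) and Casq2 (-0.008) changed sign. For Atp2a2 and Pln, at the top of the scale, signs carry no information.

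The probes past the adjusted threshold numbered 4 with a robust prior and intensity trend, 0 in the unmoderated linear model (1241 at an unadjusted p under 0.05) and 7 with the replicate block. They ran from 1 to 332 as single arrays were left out. Members with an unadjusted p under 0.05 numbered 0 in the unmoderated model, and their number changed with the array left out, as it did over all probes. Members higher without overlap ran from 5 to 8 and lower ones from 1 to 2 without single arrays. Fewer arrays leave fewer ways to overlap, and the counts over all 22206 probes rose too. Probes higher without overlap then ran from 7502 to 8132, beside 4311 with all 4 arrays. Probes lower without overlap ran from 7216 to 8077, beside 4157. The median difference of the members ran from 0.104 to 0.523 without single arrays. Calcium genes outside the 10 with an unadjusted p under 0.05 numbered 3 with the dim-probe filter, 3 with trend and robust prior, and 1 to 13 without single arrays. Same-numbered arrays of the 2 groups deviated together with a correlation of 0.163 across probes, which are not independent, and nothing in the labels makes the numbers a pairing. With the replicate block 0 members passed the adjustment and 6 had an unadjusted p under 0.05, the 4 of the unblocked fit with Sln and Trdn. Over all 22206 probes that number also rose, from 1833 without the block to 2465 with it. The blocked fit had 1 residual degree of freedom. The number of arrays limits all of these, and values at the top of the scale limit Atp2a2 and Pln.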
